A study of Mus musculus with 6 samples.

Results

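The mRNAs of 9 genes of the KIT-PI3K-mTOR pathway were followed in mouse oocytes: Kit, Pik3ca, Pdpk1, Akt1, Foxo3, Tsc1, Tsc2, Mtor and Rps6kb1. They were taken by symbol, from a list drawn up with earlier results of these data known, and all 9 were found among the 24255 genes of the expression table. RNA-Seq had been done on 3 WT and 3 Lsm14b-KO libraries, each made from 20 oocytes. The oocytes were GV-stage FGOs, which are fully grown and still held in meiotic prophase with an intact nucleus, and the comparison asks what loss of LSM14B, an oocyte RNA-binding protein, does to their mRNA levels. Lsm14b-KO females were homozygous for Lsm14b tm1a(KOMP)Mbp, a knockout-first allele that carries a reporter-tagged insertion in every cell of the animal, and both genotypes were kept on a C57BL/6J background. All females had received 5 IU of PMSG, a gonadotropin that drives follicle growth, 46 h before collection. The ages of the females are not given in the sources used here, and neither is whether the 3 libraries of a genotype came from different animals, so the p-values measure the spread between these libraries, which may be technical. FGOs are a late stage at which transcription is largely silent, so the libraries hold stored mRNA and do not show protein or phosphorylation, the level at which this pathway is switched.

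In the ovary KIT sits on the oocyte surface and is engaged by KIT ligand from the surrounding granulosa cells. The active receptor recruits PI3-kinase, whose lipid product brings AKT to the membrane, where PDPK1 phosphorylates it. AKT then drives FOXO3 out of the nucleus and inactivates the TSC1-TSC2 complex, which frees the GTPase RHEB to turn on mTOR complex 1 and its target S6 kinase, and this chain is best known for waking resting oocytes in primordial follicles.

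Only Kit passed the test: its mRNA was about 2-fold higher in Lsm14b-KO than in WT FGOs, with every Lsm14b-KO library above every WT library. The call stood close to the threshold and was kept in 7 of 16 alternative fits. Pdpk1 mRNA showed the same separation of the libraries by a similar ratio, but it missed the threshold. Of all tested genes, 19.1% were separated in this direction. The other 7 mRNAs, from Pik3ca to Rps6kb1, stayed under 1 FPKM in all 6 libraries, and their groups overlapped. FPKM counts fragments per kilobase of transcript, scaled to the fragment total of the library, so levels can be compared between genes.

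The targeted gene was read first, as a check of the labels. Lsm14b had 2.77, 3.98 and 1.72 FPKM in WT replicates 1 to 3 against entries of 0, 0 and 0.10 FPKM for Lsm14b-KO replicates 1 to 3, a difference of -1.85 on the log2(FPKM + 1) scale (adjusted p 0.0038 in limma). The cells were checked by markers: 15 of 15 oocyte markers reached 1 FPKM. Their levels summed to 14230 to 15396 FPKM in WT and 13334 to 16358 FPKM in Lsm14b-KO libraries. Single oocyte markers still differed: the Lsm14b-KO libraries were all above the WT libraries for Nobox, Padi6 and Ddx4 and all below for Oosp1 and Dazl. The groups of the other oocyte markers overlapped. Of 15 granulosa and cumulus markers, 7 were listed at 0 in all libraries and 3 reached 1 FPKM, and their sums were 9.58 to 13.3 FPKM in WT and 6.29 to 10.2 FPKM in Lsm14b-KO libraries. The largest single part of each of these sums was Cyp19a1, named after its values were seen. It had 11.5, 8.26 and 10.5 FPKM in WT and 5.47, 3.00 and 5.76 FPKM in Lsm14b-KO libraries. Without Cyp19a1 and Kitl the order turned, with sums of 0.680 to 1.75 FPKM in WT and 2.74 to 3.92 FPKM in Lsm14b-KO libraries. In 3 of the 15 markers (Fshr, Hsd3b1 and Kitl) the Lsm14b-KO libraries were all above the WT libraries and in 2 (Cyp19a1 and Star) all below, and the part of granulosa cell RNA in the results was not tested. The 6 red blood cell markers found in the table were at 0 throughout. Of 9 leukocyte and mast cell markers, listed because mast cells also carry KIT, 6 were at 0 in all libraries and the sums did not exceed 0.733 FPKM in WT and 1.07 FPKM in Lsm14b-KO libraries. Sequencing depth could be compared between libraries through the smallest steps in their FPKM. With WT replicate 1 set to 1, it was 1 to 1.14 in WT and 1.33 to 2.17 in Lsm14b-KO libraries, while the FPKM summed to 1141324 to 1244182 in WT and to 564671 to 1029728 in Lsm14b-KO libraries. The Lsm14b-KO libraries were thus both deeper and smaller in FPKM total, and the differences of the called genes are therefore also given under other scalings. In pooled oocytes, fewer cells that hold an mRNA and less of it per cell cannot be told apart.

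Kit (chromosome 5, 75574916 to 75656722, plus strand, GRCm38/mm10) encodes the receptor tyrosine kinase at the head of the pathway, and no other annotated gene overlaps it. Its level was 4.20, 3.46 and 4.58 FPKM in WT replicates 1 to 3 and 7.26, 10.6 and 6.73 FPKM in Lsm14b-KO replicates 1 to 3. The groups did not overlap, and Lsm14b-KO replicate 2 was the highest library. The WT mean was 4.08 ± 0.57 FPKM and the Lsm14b-KO mean 8.21 ± 2.13 FPKM (SD, n = 3 each), a ratio of 2.01. On the log2(FPKM + 1) scale, which understates the change of low genes, the difference was 0.84 (SE 0.24, 95% interval 0.28 to 1.40, adjusted p 0.0441 in limma). An exact permutation test on Kit alone, two-sided, returned a p of 0.1, and with 3 libraries a side it cannot return less.

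Kit was 1 of the 2 genes among the 9 that reached 1 FPKM in at least 1 library and were tested. Of all 6398 tested genes, 21.6% passed the threshold of 0.05 on the adjusted p in limma, with 6.38% higher and 15.2% lower in Lsm14b-KO FGOs. With 2 genes tested, a count of 1 cannot be read against that background. Both tested genes had groups that did not overlap and were higher in Lsm14b-KO FGOs, as did 19.1% of all tested genes.

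The call for Kit stood close to the threshold. It was kept in 7 of 16 alternative fits and missed in 9, with a positive difference throughout, from 0.60 to 1.44 on the log2 scale, and an adjusted p of 0.0225 to 0.159 in limma. Leaving out any WT library ended it (adjusted p 0.135, 0.159 and 0.103 in limma without WT replicates 1, 2 and 3). It was lost as well without Lsm14b-KO replicate 2 or 3 (adjusted p 0.0911 and 0.0979 in limma) and was kept without Lsm14b-KO replicate 1 (adjusted p 0.0225 in limma). A pseudocount of 0.01 and the absence of a filter on low values also ended it (adjusted p 0.055 and 0.0881 in limma). The scaling moved the size: measured from the median over tested genes, the difference was 0.92 as reported, 1.04 with FPKM brought to a common total in each library (TPM), and 0.51 once the trends with transcript length and GC content had been removed from each library, where the adjusted p was 0.0745 in limma.

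**Figure D1:**
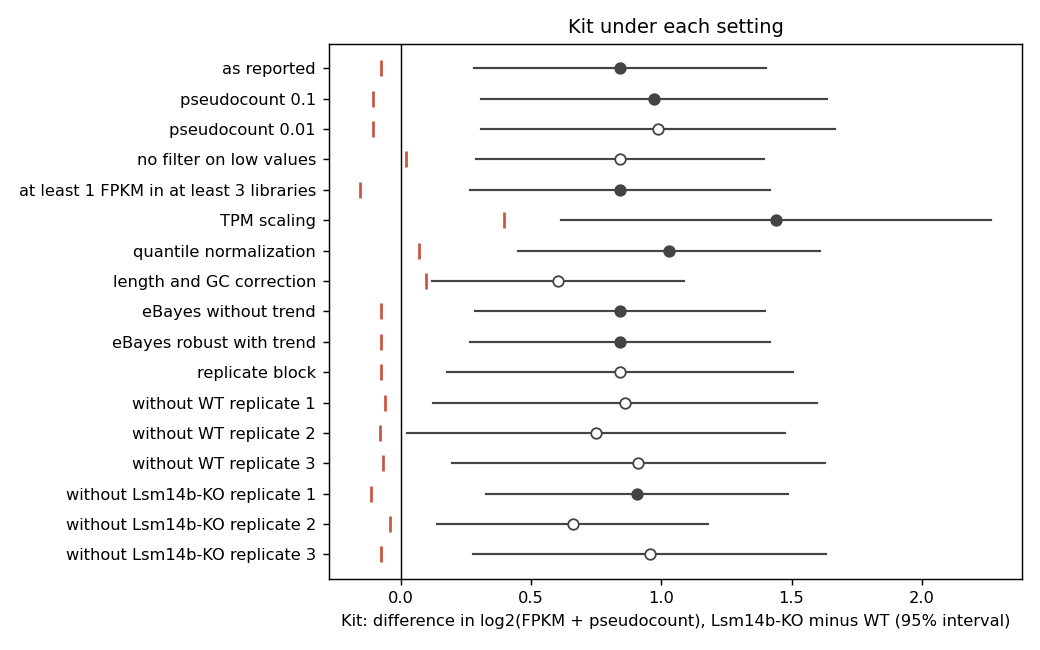
Difference of Kit mRNA between Lsm14b-KO and WT FGOs (x axis, log2 scale, with its 95% interval) under the reported fit and each of the 16 alternatives (y axis); filled points have an adjusted p under 0.05 in limma and red ticks mark the median of all tested genes. All points lie between 0.60 and 1.44, to the right of 0 and of their tick, and 7 of the 16 alternatives are filled.

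Among tested genes, the 3 whose pattern over the 6 libraries lay nearest to that of Kit were Smg8, Cdk17 and Paics, by the root mean square difference of centred log2(FPKM + 1). Smg8, a factor of nonsense-mediated decay, differed from Kit by 0.071 and had 1.19, 0.972 and 1.57 FPKM in WT and 2.76, 4.47 and 2.83 FPKM in Lsm14b-KO libraries. Cdk17, a cyclin-dependent kinase, differed by 0.087, and Paics, an enzyme of purine synthesis, by 0.090. As in Kit, Lsm14b-KO replicate 2 was the highest library in all 3, which follows largely from choosing them by their likeness to Kit over these libraries.

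Pik3ca (chromosome 3, 32397671 to 32468486, plus strand) encodes the catalytic p110 alpha subunit of PI3-kinase. Its level was 0.551, 0.561 and 0.480 FPKM in WT and 0.350, 0.641 and 0.469 FPKM in Lsm14b-KO libraries. The groups overlapped, and the lowest and the highest value were both from Lsm14b-KO libraries. The means were 0.531 ± 0.044 and 0.487 ± 0.146 FPKM (SD, n = 3 each), and the exact permutation test gave a two-sided p of 0.6.

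Pdpk1 (chromosome 17, 24073680 to 24150924, minus strand) encodes the kinase that phosphorylates AKT in its activation loop. It is overlapped by a non-coding RNA on each strand, and the sources used here do not say whether the libraries kept the strand. Its level was 0.627, 1.00 and 1.00 FPKM in WT and 1.75, 1.99 and 1.21 FPKM in Lsm14b-KO libraries. All 3 Lsm14b-KO libraries were above all 3 WT libraries, with Lsm14b-KO replicate 3 nearest to them. The WT mean was 0.879 ± 0.218 FPKM and the Lsm14b-KO mean 1.65 ± 0.40 FPKM (SD, n = 3 each), a ratio of 1.88. The difference on the log2(FPKM + 1) scale was 0.49 (SE 0.21, 95% interval 0.01 to 0.97), with an unadjusted p of 0.0458 and an adjusted p of 0.12 in limma. The call was missed in all 16 alternatives (0.22 to 0.90 on the log2 scale, adjusted p 0.057 to 0.468 in limma), and the size fell furthest after the correction for length and GC content, to 0.22.

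Akt1 (chromosome 12, 112653821 to 112674884, minus strand) encodes the AKT kinase after which the pathway is often named. It was listed at 0, 0.0926 and 0.205 FPKM in WT and at 0, 0.217 and 0.286 FPKM in Lsm14b-KO libraries. Each group held 1 library at 0, and the groups overlapped (two-sided p of 0.6, exact permutation test). At the depth of these 2 libraries a count of 0 allows levels of up to 0.316 FPKM in WT replicate 1 and 0.238 FPKM in Lsm14b-KO replicate 1, taking 3 fragments as the limit.

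Foxo3 (chromosome 10, 42181841 to 42276755, minus strand) encodes the forkhead transcription factor that AKT excludes from the nucleus. Its level was 0.0961, 0.253 and 0.466 FPKM in WT and 0.145, 0.395 and 0.133 FPKM in Lsm14b-KO libraries. The WT libraries alone spanned all Lsm14b-KO values, so that no difference was detectable (two-sided p of 0.7, exact permutation test).

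Tsc1 (chromosome 2, 28641228 to 28691167, plus strand) and Tsc2 (chromosome 17, 24595816 to 24632630, minus strand) encode the partners of the complex that holds RHEB inactive. Tsc1 had 0.101, 0.0593 and 0.0657 FPKM in WT and 0.102, 0.417 and 0.0936 FPKM in Lsm14b-KO libraries. Of the Tsc1 libraries only Lsm14b-KO replicate 2 stood clearly above the rest, and WT replicate 1 lay between Lsm14b-KO replicates 3 and 1 (two-sided p of 0.2, exact permutation test). Tsc2 was listed at 0, 0.0374 and 0 FPKM in WT and at 0.0321, 0 and 0.0393 FPKM in Lsm14b-KO libraries. The Tsc2 values were thus 0 in 3 of the 6 libraries, and the gene shares its deposited locus with Pkd1 on the other strand.

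Mtor (chromosome 4, 148448611 to 148557683, plus strand) encodes the kinase of both mTOR complexes, and Rps6kb1 (chromosome 11, 86498871 to 86544805, minus strand) the S6 kinase that mTOR complex 1 activates. Mtor had 0.150, 0.185 and 0.146 FPKM in WT and 0.113, 0.154 and 0.208 FPKM in Lsm14b-KO libraries. Its means were the closest of the 9 genes, 0.160 ± 0.021 and 0.158 ± 0.048 FPKM (SD, n = 3 each), and the exact permutation test gave a two-sided p of 1. Rps6kb1 had 0.588, 0.172 and 0.191 FPKM in WT and 0.295, 0.223 and 0.294 FPKM in Lsm14b-KO libraries. WT replicate 1 was above, and the other WT libraries below, all 3 Lsm14b-KO libraries (two-sided p of 1, exact permutation test). Mtor shares its deposited locus with Angptl7 and Rps6kb1 with Rnft1, in both cases genes on the other strand.

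Fitted without the filter on low values, none of the 9 passed at an adjusted p of 0.05 in limma, where 5.03% of 14325 genes did. There the unadjusted p was under 0.05 for Kit and Pdpk1. The intervals on the log2(FPKM + 1) scale bound what could have been seen: -0.40 to 0.30 for Pik3ca, -0.39 to 0.29 for Foxo3, -0.16 to 0.15 for Mtor and -0.38 to 0.30 for Rps6kb1. At these levels the pseudocount of 1 is larger than the values, so the scale compresses any change.

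**Figure D2:**
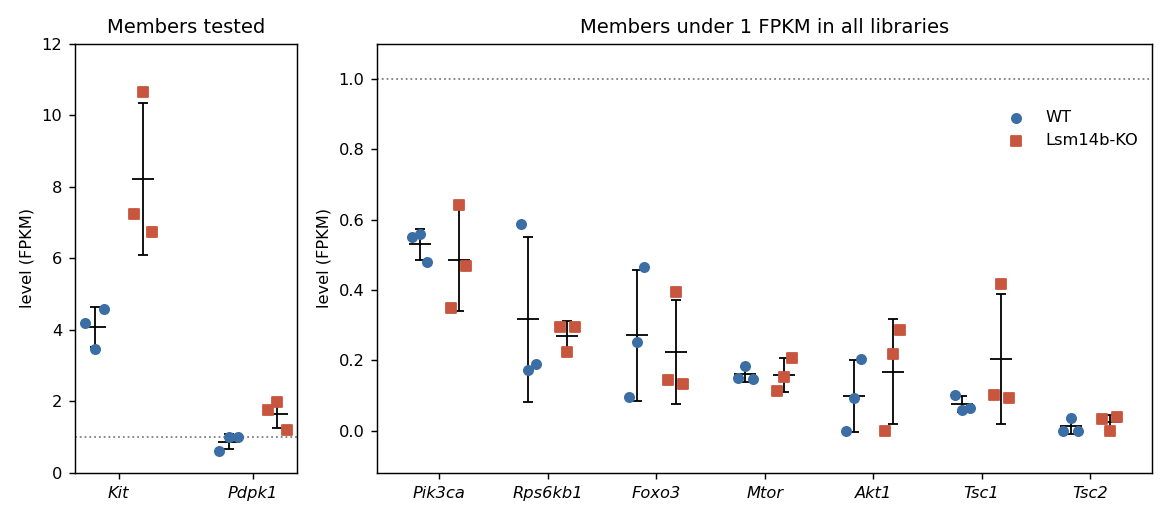
Level of each of the 9 mRNAs (y axis, FPKM) in 3 WT (circles) and 3 Lsm14b-KO (squares) libraries, with the mean and SD of each group; the dotted line marks 1 FPKM, and the panels have different y scales. Kit and Pdpk1 are the genes whose groups do not overlap, and the other 7 lie under 1 FPKM.

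The order of the levels was read within each genotype. In WT FGOs Kit was the highest, followed by Pdpk1 and Pik3ca, with no overlap between the libraries of Kit and Pdpk1 or of Pdpk1 and Pik3ca. The nearest WT values of Pdpk1 and Pik3ca, 0.627 and 0.561 FPKM, rested on an estimated 16 and 20 fragments. Counting error could close that gap. From Pik3ca through Rps6kb1, Foxo3, Mtor and Akt1 to Tsc1 each gene overlapped the next. Tsc2 was listed lowest, under Tsc1 without overlap. A count of 0, as for Tsc2 in WT replicate 1, allows up to 0.135 FPKM, taking 3 fragments as the limit. That is above every WT value of Tsc1, so the WT order of Tsc1 and Tsc2 is not resolved. In Lsm14b-KO FGOs the first 5 places were held in the same order, and Tsc1, Akt1 and Mtor followed. Here Kit, Pdpk1 and Pik3ca did not overlap their lower neighbours, Rps6kb1 to Mtor overlapped in turn, and Tsc2 was under Mtor without overlap. The nearest values of Pik3ca and Rps6kb1, 0.350 and 0.295 FPKM in Lsm14b-KO replicate 1, rested on an estimated 15 and 8 fragments.

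The 9 transcripts are long, from 2690 nt for Akt1 to 8917 nt for Pik3ca, with 5241 nt for Kit and 7161 nt for Pdpk1. Among 9584 annotated genes of 2.5 to 9 kb, 27% reached 1 FPKM in at least 1 library, against 2 of the 9 genes here. Length also ran with the difference between genotypes: the median log2 difference was -0.62 in 901 tested genes under 1 kb, -0.23 in 2420 genes of 1 to 2.5 kb, 0.19 in 2054 genes of 2.5 to 5 kb and 0.34 in 713 genes of 5 kb or more. Kit and Pdpk1 fall in the last class, where 8.98% of the genes were called higher and 8.98% lower. Their differences of 0.84 and 0.49 lay above its median of 0.34. The correction for length and GC content brought them to 0.60 and 0.22, beside a median of 0.12 for this class after correction.

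**Figure D3:**
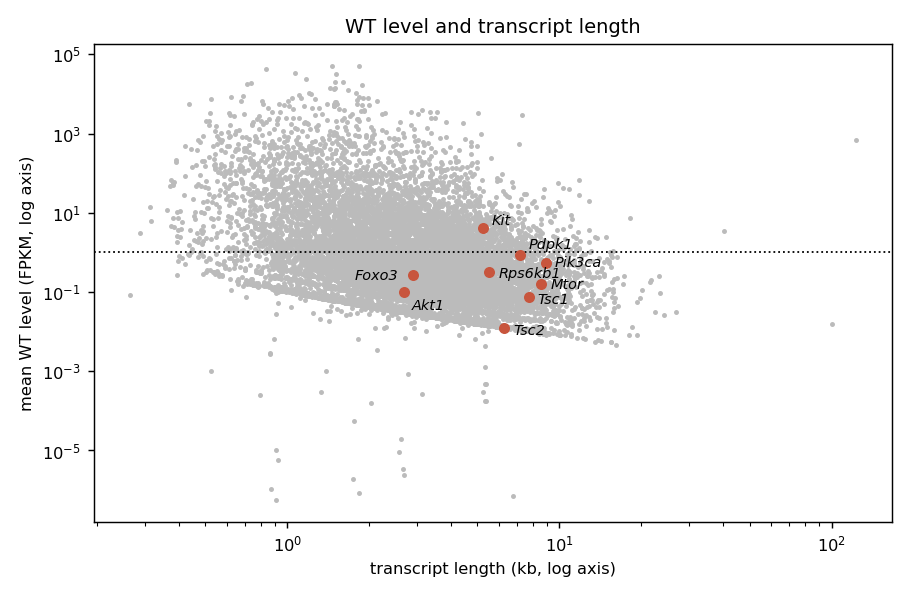
Mean WT level (y axis, FPKM, log scale) against transcript length (x axis, kb, log scale) for all annotated genes above 0 in WT (grey) and the 9 genes (red, named); the dotted line marks 1 FPKM. Kit lies above the line at 4.08 FPKM, Pdpk1 just under it at 0.879 FPKM, and the rest lie below among transcripts of 2690 to 8917 nt.

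How many fragments stand behind these values was estimated from the smallest steps in FPKM and the transcript lengths. In WT replicate 1 a fragment on a transcript of 1 kb was worth 0.283 FPKM. For Kit this gave 78, 73 and 87 fragments in WT and 178, 384 and 271 fragments in Lsm14b-KO libraries. For Pdpk1 it gave 16, 29 and 26 fragments in WT and 59, 98 and 66 fragments in Lsm14b-KO libraries. Both genes thus rest on 16 or more fragments in every library, whereas most of the chain was barely sampled. Pik3ca had 17, 20 and 16 fragments in WT and 15, 39 and 32 in Lsm14b-KO libraries, Mtor 5 to 7 and 5 to 15, and Rps6kb1 4 to 11 and 8 to 12. Foxo3 had 1 to 5 fragments in WT and 2 to 8 in Lsm14b-KO libraries, and Akt1 had 0 to 2 and 0 to 6. Tsc2 had 0 or 1 fragment in WT and 0 to 2 in Lsm14b-KO libraries, under the limit of 3 in every library, so no ratio is given for it.

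Divided by relative depth, the summed fragments of Kit were 2.04 times as many in Lsm14b-KO as in WT libraries (238 and 833 fragments, exact 95% interval 1.76 to 2.36), and those of Pdpk1 1.83 times (71 and 223, 1.39 to 2.42). The fragments were derived from the FPKM, so these ratios are not a measure separate from it. Their intervals cover counting error only and compare the libraries, not the genotypes. For Pik3ca the ratio was 0.944 (0.663 to 1.36), for Mtor 1.03 (0.549 to 1.99), for Rps6kb1 0.858 (0.462 to 1.63) and for Foxo3 0.841 (0.332 to 2.23). All 4 intervals include 1, and that of Foxo3 also includes the ratio seen for Kit. With 3 fragments in WT and 10 in Lsm14b-KO libraries, Akt1 had a ratio of 1.94 (0.50 to 11.0). Tsc1 had a ratio of 2.83 (1.23 to 7.56) that rested on 24 of its 34 Lsm14b-KO fragments in replicate 2, and without that library the ratio was 1.295 (0.445 to 4.01).

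**Figure D4:**
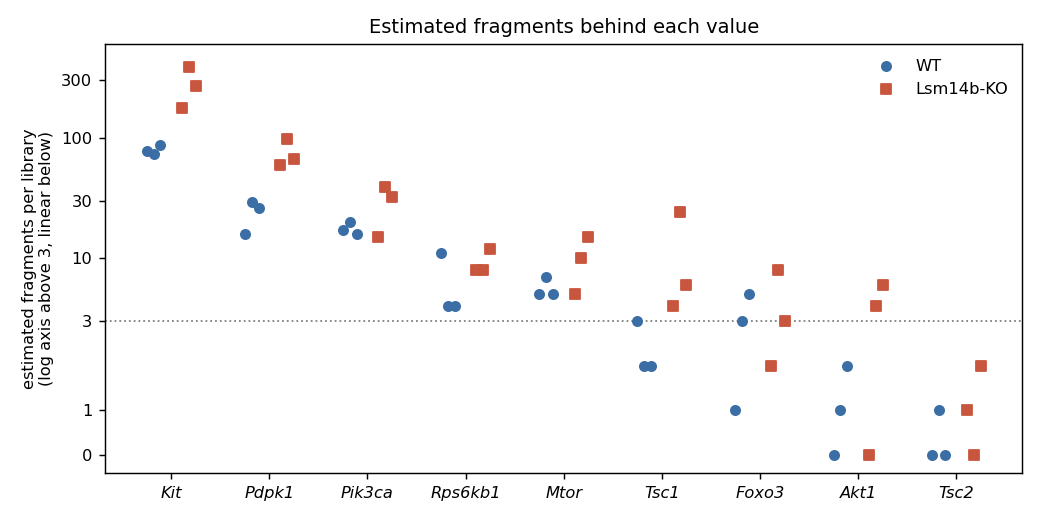
Estimated fragments behind each value (y axis, log scale above 3 and linear below) for the 9 genes in 3 WT (circles) and 3 Lsm14b-KO (squares) libraries; the dotted line marks 3 fragments. Kit has 73 to 384 and Pdpk1 16 to 98 fragments, whereas Tsc2 has at most 2; the Lsm14b-KO libraries are deeper, so equal levels give more fragments there.

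The mRNAs were also described by a hexamer that the study examined in relation to LSM14B binding, CCTCTC in DNA letters. It was searched on the sense strand of the annotated 3′ UTRs (GENCODE vM21), and the sites are shown because their number differs between the 2 tested genes: Pdpk1 held 2 and Kit none. Akt1 held 2, Mtor 1, and Pik3ca, Foxo3, Tsc1, Tsc2 and Rps6kb1 none. The paper names FOXO3 among factors whose mRNAs LSM14B bound, and lists KIT among those identified by its LSM14B binding or co-immunoprecipitation experiments. Most binding sites that it mapped lay outside 3′ UTRs, so a lack of matches does not mean a lack of binding. Among tested genes with a 3′ UTR of like length, the share with at least 1 match was 44.1% for the length of Kit, 85.1% for that of Pdpk1, 28.9% for Akt1 and 28.3% for Mtor. For the other genes without a match it was 85.3% for Pik3ca, 72% for Tsc1, 68.5% for Rps6kb1, 26.7% for Tsc2 and 22.4% for Foxo3. The median number of matches at like length was 2 for Pdpk1 and 0 for Kit, the same as these genes held. The sites follow 5′ to 3′ on the mRNA in DNA letters, with the hexamer in capitals, and none is evidence of binding. The Pdpk1 sites are on the minus strand at chr17:24077775-24077800 and chr17:24076369-24076394, the Akt1 sites on the minus strand at chr12:112654234-112654259 and chr12:112653962-112653987, and the Mtor site on the plus strand at chr4:148557206-148557231 (GRCm38/mm10).
Pdpk1, first site: cttggctgtaCCTCTCtttgactagg
Pdpk1, second site: tagagctgagCCTCTCcacttcaggg
Akt1, first site: gctaactggcCCTCTCcctctgggcg
Akt1, second site: agatgctttcCCTCTCccgctgtccg
Mtor: tccagttggtCCTCTCaaccaggggc

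The 9 genes were set among 102 other genes of the pathway, of which 49 were tested, 53 stayed under the filter and 7 of those 53 were at 0 in all libraries. Of the 49, 3 were called higher and 1 lower in Lsm14b-KO FGOs, against 21.6% of all tested genes, and 17 (34.7%) had an unadjusted p under 0.05, against 39.4% of all tested genes. Their median difference was 0.37 on the log2(FPKM + 1) scale, against -0.08 for all tested genes, with 34 fitted higher and 15 lower. The groups did not overlap in 18 that were higher and 4 that were lower, against 19.1% and 26% of all tested genes. The filter bears on this count, since 28.6% of the 49 reached 1 FPKM in Lsm14b-KO libraries only, compared with 13% of all tested genes. The distance of the pathway median from that of all genes was 0.45 as reported, 0.38 under TPM scaling, 0.16 after the correction for length and GC content and 0.063 without the filter.

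On the receptor side 2 of 16 listed genes were tested and none was called. Kitl, which encodes the ligand of KIT and is normally made by granulosa cells, had 0.0970, 0.383 and 0.189 FPKM in WT and 0.402, 0.548 and 0.559 FPKM in Lsm14b-KO libraries. Its Lsm14b-KO libraries were all above its WT libraries, as were those of the granulosa markers Fshr and Hsd3b1, while those of Cyp19a1 were all below. Kitl stayed under the filter (adjusted p 0.234 in limma without it).

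Of 9 PI3-kinase genes besides Pik3ca, 7 were tested and none was called. An unadjusted p under 0.05 was found for 3 of the 7, against 39.4% of all tested genes. Pik3r1, which encodes the p85 alpha regulatory subunit that binds the active receptor, had 0.415, 0.595 and 0.368 FPKM in WT and 0.769, 3.39 and 1.92 FPKM in Lsm14b-KO libraries. The groups of Pik3r1 did not overlap, with Lsm14b-KO replicate 1 nearest to WT (difference 0.96 on the log2 scale, SE 0.32, adjusted p 0.0672 in limma). It passed the filter through Lsm14b-KO libraries only, which favours a difference, and without the filter the adjusted p was 0.145 in limma.

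Among 9 phosphatases that oppose the pathway, 2 were tested and 1 was called. Inpp5f, an inositol polyphosphate phosphatase, was called higher, with a WT mean of 0.446 ± 0.152 FPKM and a Lsm14b-KO mean of 1.52 ± 0.27 FPKM (SD, n = 3 each). The fitted difference of 0.80 (SE 0.20) had an adjusted p of 0.0272 in limma, and the call held in 9 of 16 alternatives, but with 1 library removed it held only where that was Lsm14b-KO replicate 1. Inpp5f reached 1 FPKM in Lsm14b-KO libraries only, so the filter itself favoured a difference, and without the filter the call was lost (adjusted p 0.0576 in limma). TPM scaling gave a difference of 1.15, and the correction for length and GC content gave 0.58, where the call was lost too (adjusted p 0.0682 in limma).

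Of 8 genes around AKT, 4 were tested and none was called. Akt2 was listed at 0.378, 0 and 0.184 FPKM in WT and 0.284, 0.340 and 0.218 FPKM in Lsm14b-KO libraries, so its groups overlapped. Of 8 FOXO genes and FOXO-linked cell cycle genes, 3 were tested and none was called. Foxo1, a paralog of Foxo3, had 2.90, 3.22 and 2.92 FPKM in WT and 4.31, 6.75 and 5.12 FPKM in Lsm14b-KO libraries, above Foxo3 in every library. The Foxo1 groups did not overlap, and the difference of 0.65 (SE 0.22) had an adjusted p of 0.0639 in limma.

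Of 10 other subunits of the mTOR complexes, 5 were tested and none was called. Rptor, which defines mTOR complex 1, was listed at 0 in all 3 WT libraries and at 0.0567, 0.0386 and 0.0347 FPKM in Lsm14b-KO libraries. Rictor, which defines mTOR complex 2, had 0.498, 0.487 and 0.324 FPKM in WT and 0.711, 1.11 and 1.05 FPKM in Lsm14b-KO libraries (0.44, SE 0.19, adjusted p 0.131 in limma), passing the filter through Lsm14b-KO libraries only. The groups did not overlap for either gene. Prr5, of mTOR complex 2, went the other way without overlap, with means of 1.48 FPKM in WT and 0.573 FPKM in Lsm14b-KO libraries. Its difference was -0.64 (SE 0.21, adjusted p 0.0619 in limma), and it passed the filter through WT libraries only. Over the 5 tested genes the groups did not overlap in 2 that were higher and 1 that was lower, against 19.1% and 26% of all tested genes. The level of Rptor was far under the filter, where a value rests on few fragments. Since the WT libraries were less deep, its separation is not resolved.

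The list around TSC, RHEB and the Rag GTPases had 15 of 24 genes tested, with 1 called higher and 1 lower. Lamtor1, the anchor of the Ragulator complex on lysosomes, rose, with means of 8.22 ± 0.52 FPKM in WT and 17.9 ± 6.4 FPKM in Lsm14b-KO FGOs (SD, n = 3 each) and a difference of 0.99 (SE 0.30, adjusted p 0.048 in limma). Seh1l, a subunit shared by the GATOR2 complex and the nuclear pore, was called lower, with means of 1.85 ± 0.13 FPKM in WT and 0.823 ± 0.069 FPKM in Lsm14b-KO FGOs (SD, n = 3 each) and a difference of -0.64 (SE 0.18, adjusted p 0.0374 in limma). Each of these calls held in 7 of 16 alternatives, and among the fits without 1 library only in that without Lsm14b-KO replicate 1. That of Seh1l was lost under TPM scaling (-0.26, adjusted p 0.412 in limma). Seh1l reached 1 FPKM in WT libraries only, so the filter favoured a difference, and without the filter the adjusted p was 0.0715 in limma. For Lamtor1, TPM scaling gave a difference of 1.63 and the correction for length and GC content 1.41, and for Seh1l this correction gave -0.66. Both genes have an annotated gene on the other strand. Rheb, the GTPase that turns on mTOR complex 1, stood at 169, 158 and 151 FPKM in WT and 163, 65.4 and 108 FPKM in Lsm14b-KO libraries, and its groups overlapped (adjusted p 0.259 in limma). Tbc1d7, the third subunit of the TSC complex, was listed at 1.04, 0.996 and 0 FPKM in WT and 1.28, 0.664 and 0.707 FPKM in Lsm14b-KO libraries, with overlapping groups (adjusted p 0.606 in limma).

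Downstream, 5 of 9 genes of the S6 kinase and 4E-BP branch were tested and none was called. Rps6, the ribosomal protein phosphorylated by S6 kinase, whose reads processed pseudogenes may share, had 35.7, 38.5 and 32.4 FPKM in WT and 41.9, 14.6 and 21.4 FPKM in Lsm14b-KO libraries, so the groups overlapped (adjusted p 0.299 in limma). Eif4ebp1, a translation repressor that mTOR inactivates, was listed at 0.714, 0 and 0.341 FPKM in WT and 0, 0.183 and 0.322 FPKM in Lsm14b-KO libraries. Of 9 LKB1 and AMPK genes, which restrain mTOR complex 1 through TSC2, 6 were tested and 1 was called higher. Cab39, the scaffold that activates LKB1, rose, with means of 0.839 ± 0.322 FPKM in WT and 2.66 ± 0.40 FPKM in Lsm14b-KO FGOs (SD, n = 3 each) and a difference of 1.00 (SE 0.21, adjusted p 0.0163 in limma). Its call was the most stable of the 4, kept in 13 of 16 alternatives and lost without WT replicate 2 or 3 or Lsm14b-KO replicate 3. For Cab39, TPM scaling gave a difference of 1.44 and the correction for length and GC content 0.85.

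**Figure D5:**
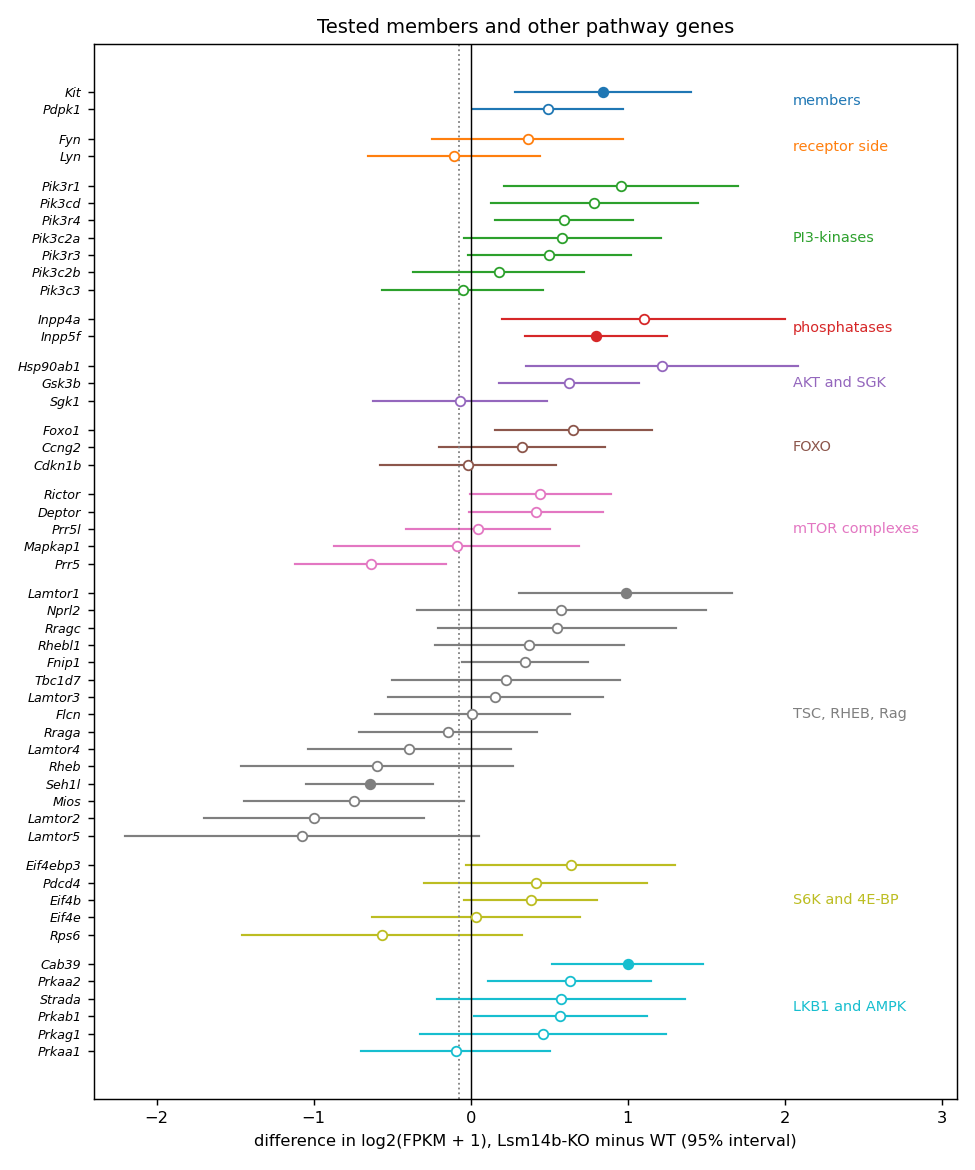
Difference between Lsm14b-KO and WT FGOs (x axis, log2(FPKM + 1) scale, with its 95% interval) for the 2 tested genes among the 9 and the tested pathway genes, 1 of which is not drawn (y axis, coloured by list); filled points have an adjusted p under 0.05 in limma, and the dotted line marks the median of all tested genes at -0.08. The filled points are Kit, Inpp5f, Lamtor1, Seh1l and Cab39, and more pathway genes are fitted to the right of 0 than to the left.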

How the data were processed

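Per the labels and the study's methods, RNA of 20 oocytes was amplified by Smart-seq2, and the authors aligned the reads to mm10 with TopHat2 2.0.13 and deposited 1 FPKM value per gene and library from Cufflinks 2.2.1. The deposited table also holds the authors' log2 fold changes, p-values and q-values, which were not used. The 9 genes and the lists were chosen with earlier results of these data known. FPKM was transformed to log2(FPKM + 1), and limma 3.58.1 (R 4.3.3) was fitted to genes that reached 1 FPKM in any library (eBayes with trend, genotype only, two-sided, Benjamini-Hochberg over 6398 genes). Lengths, loci and 3′ UTRs came from GENCODE vM21 (95.1% of tested genes matched). Relative depth is the commonest ratio of low FPKM values between libraries, and 61.6% of 5012 low-value genes lay at whole multiples of their smallest value (tolerance 0.1), so fragments are estimates and no count model was fitted. Named were Lsm14b, the 9 genes, the called pathway genes, further pathway genes (Kitl, Pik3r1, Akt2, Foxo1, Rptor, Rictor, Rheb, Tbc1d7, Rps6 and Eif4ebp1) and the 3 genes most like Kit. Prr5, Lamtor2, Lamtor3, Lamtor4 and Lamtor5 were added after their values were seen. The rule's other genes are not reported here.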

Additional observations from a re-analysis of the deposited data

How the results depend on the processing

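Across 16 alternatives, the differences of Lsm14b, Kit, Pdpk1, Inpp5f, Lamtor1, Seh1l and Cab39 kept their sign, and Lsm14b kept its call in all 16. Of the 9 genes, 1 was called as reported and 0 were called at a pseudocount of 0.01, without the filter, or after the length and GC correction. The genes called numbered 720 without the filter, against 1383. Of the 49 other pathway genes, 4 were called as reported, 8 (8 higher) under TPM scaling, 8 of 36 when 1 FPKM was required in 3 libraries, and 1 of 95 without the filter. Leaving out 1 library gave 315 to 2898 genes called: 396, 397 and 462 without WT replicates 1, 2 and 3, and 2898, 865 and 315 without Lsm14b-KO replicates 1, 2 and 3. In the same fits 0 to 1 of the 9 genes were called, Kit without Lsm14b-KO replicate 1. Of the other pathway genes 0 to 23 were called, with 23 without Lsm14b-KO replicate 1, 1 without WT replicate 1 or Lsm14b-KO replicate 2, and 0 without WT replicate 2 or 3 or Lsm14b-KO replicate 3. The share of calls that were higher was 29.5% as reported, 63.2% under TPM scaling, 42.4% with quantile normalization and 44.6% after the length and GC correction, with medians of all tested genes of -0.08, 0.40, 0.07 and 0.10 on the log2 scale. The cause of these changes was not tested. Same-numbered libraries did not deviate together (r of 0.19, -0.13 and 0.018), so the replicate numbers were not taken as pairs. With the number as a replicate block, 0 of the 9 genes (Kit at an adjusted p of 0.0751 in limma), 2 of the 49 other pathway genes and 1244 genes in all were called. Akt1, Foxo3, Tsc1 and Tsc2 had at most 8 fragments in a library, other than 24 for Tsc1 in Lsm14b-KO replicate 2, and the counting intervals of Akt1, Foxo3 and Tsc1 include the ratio of Kit, 2.04.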
